A study of Saccharomyces cerevisiae with 6 samples.

Results

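Ergosterol is the main sterol of yeast membranes, and 32 genes of its synthesis, storage and control were followed in Saccharomyces cerevisiae cells overexpressing the translation elongation factor eEF1A. They were chosen by the gene symbol that the annotation of the chip gives to a probe set, and each had a probe set of its own, so that 32 of the 5726 genes measured are described. By role, 9 genes encode enzymes of the mevalonate steps, 16 act in the steps through squalene to ergosterol, 2 encode the enzymes that esterify sterols, and 5 were grouped as regulators and sterol-responsive genes. Their expression was measured on 6 Affymetrix Yeast 2.0 arrays, 1 for each log phase culture from which total RNA was taken. The 2 eEF1A arrays (replicates 2 and 3) came from cells with a multi-copy LEU2 plasmid that carries TEF1, the gene of eEF1A, behind the constitutive GPD promoter. The 4 control arrays (replicates 1 to 4) came from cells whose multi-copy LEU2 plasmid was empty. Both groups were wild-type yeast by the methods, and were grown at 30°C in synthetic medium without leucine until an optical density of 0.7. The labels number the replicates but do not say whether they were separate transformants, so the p-values measure the spread between these cultures.

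Yeast makes ergosterol from acetyl-CoA. The mevalonate steps join acetyl-CoA units, reduce them to mevalonate and turn this into farnesyl diphosphate, which also feeds prenyl groups, dolichol, ubiquinone and haem A. Squalene synthase commits farnesyl diphosphate to sterols, and the later steps, several of which need oxygen and haem, take place in the membrane of the endoplasmic reticulum. When sterol runs low, the zinc cluster proteins Upc2 and Ecm22 switch on many of these genes. Surplus sterol is esterified and stored in lipid droplets.

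All values are log2 expression values made by RMA, and a difference is the eEF1A mean minus the control mean on that scale. The words rose and fell are kept for genes with a Benjamini-Hochberg adjusted p under 0.05 in a limma fit over all genes. All 32 genes lay above 5.18, the level under which 95% of the probe sets of Schizosaccharomyces pombe on the same chip had their means and which marks the background, since no RNA of that yeast was hybridised. The number of arrays limits the precision. The probe set shared by TEF1 and TEF2, which encode the same protein, read 14.51 and 14.49 in eEF1A cells and 14.49 ± 0.01 (SD, n = 4) in control cells, near the top of the scale, so the arrays do not check the labels by TEF1 RNA. The groups also differed in genes of mating type and of selection markers. All 7 genes that mark a cells fell, with a summed level (log2 of the summed linear values) of 9.33 to 9.60 in eEF1A cells and 14.53 to 14.59 in control cells. All 4 that mark α cells rose, with a summed level of 14.22 to 14.51 in eEF1A cells and 8.49 to 8.58 in control cells, of which MF(ALPHA)1 was at background in control cells. MET17, which acts in the synthesis of methionine, read 11.47 and 11.62 in eEF1A cells and 4.96 ± 0.20 (SD, n = 4), within the background, in control cells. URA3, of uracil synthesis, read 7.56 and 7.25 in eEF1A cells and 4.43 ± 0.15 (SD, n = 4), also within the background, in control cells. These URA3 values are of a control probe set of the chip, the brightest for that gene. HIS3 and LYS2 rose by 0.29 and 0.23, and LEU2, the marker of both plasmids, read 14.42 and 14.43 in eEF1A cells and 14.36 ± 0.02 (SD, n = 4) in control cells and did not pass. These patterns were the same on every array of a group, so effects of eEF1A and of the strain background on the sterol genes cannot be told apart.

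In cells overexpressing eEF1A, sterol genes moved in both directions and by small amounts. Of the 32 genes, 6 rose (HMG2, ERG12, ERG24, ARE1, ARE2 and ECM22), 5 fell (ERG10, IDI1, ERG5, CYB5 and HES1) and 21 did not pass the test. Of the sterol genes 18.8% rose and 15.6% fell, against 27.5% and 15.4% of all genes (42.9% in either direction). The differences between these shares were not tested. The differences ran from -0.66 to 0.40 with a median of -0.03, against a median of 0.04 over all genes. A difference of more than 0.5 in either direction was found in 2 of the 32 genes (6.25%) and in 10.2% of all genes, and a difference of more than 1 in 0 of the 32 and in 2.17% of all genes.

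The balance of rises and falls depended on how the arrays were scaled. With each array centred on its S. cerevisiae median 5 sterol genes rose and 13 fell, against 24.0% and 25.3% of all genes, and after a second quantile normalization, of the S. cerevisiae probe sets alone, 6 rose and 11 fell, against 23.9% and 26.0% of all genes. The 5 genes named above as fallen fell under both scalings. Of the 6 that rose, ARE1 did not pass under either (adjusted p = 0.0632 and 0.0641). By the B-statistic of limma above 1.5, the threshold of the methods, 0 of the 32 genes were higher and 1 was lower, ERG10, against 6.08% and 2.51% of all genes. At an unadjusted p under 0.05 from limma 7 were higher and 8 lower, against 32.6% and 18.9% of all genes. Both eEF1A arrays lay above the range of the controls in 8 sterol genes (35.8% of all genes) and below it in 12 (21.5% of all genes, and 57.2% for either side).

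**Figure D1:**
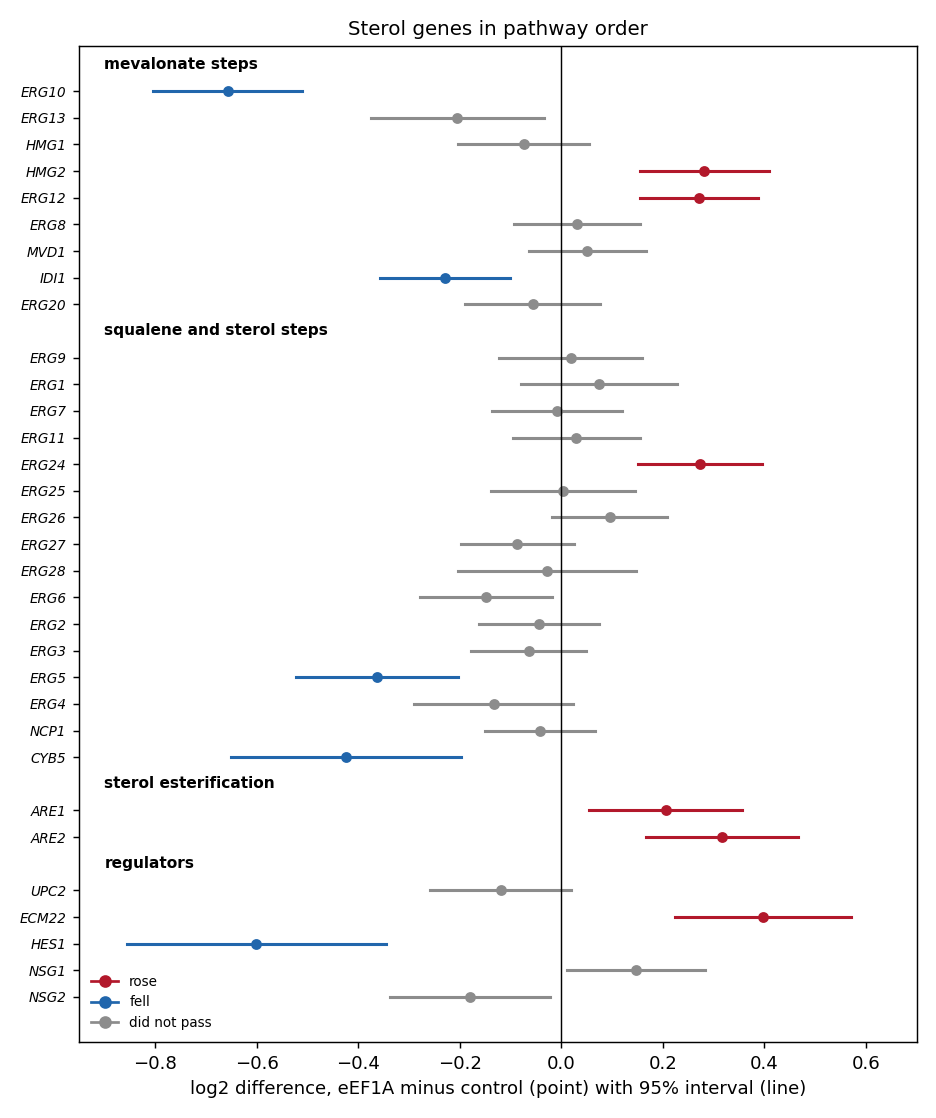
Log2 difference (eEF1A minus control) of each of the 32 sterol genes in pathway order, with points for the differences and lines for 95% intervals (2 eEF1A and 4 control arrays). Red genes rose, blue genes fell and grey genes did not pass; the intervals of the 21 grey genes lie between -0.38 and 0.28, while ERG10 at -0.66 and HES1 at -0.60 lie farthest from 0.

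Among the mevalonate steps, the gene of the first enzyme fell and genes further along moved either way. ERG10 encodes the acetyl-CoA acetyltransferase that joins the first acetyl units (YPL028W, chromosome 16, 498092 to 499288, plus strand, in the older genome build of the chip annotation, as are all positions given). It read 12.25 and 12.11 in eEF1A cells, against 12.85, 12.78, 12.92 and 12.81 in control cells. Both eEF1A arrays lay well under every control array. The difference of -0.66 (SE 0.06, 95% interval -0.80 to -0.51, 0.634-fold, adjusted p = 0.000155) was the largest of the 32 genes in either direction, and only 1.60% of all genes had a difference as low or lower.

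ERG13 encodes the synthase that adds the third acetyl unit to give hydroxymethylglutaryl-CoA. It read 11.78 and 11.66 in eEF1A cells, against 11.998, 11.78, 11.99 and 11.92 in control cells. The eEF1A arrays were the lowest of the 6, but control replicate 2 lay within 0.01 of the nearer one, and the difference of -0.20 (SE 0.07) did not pass (adjusted p = 0.0549). It passed under either scaling above and without control replicate 2 (-0.25, adjusted p = 0.0210). The difference was -0.26 without eEF1A replicate 2 and -0.14 without eEF1A replicate 3.

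Of the 2 genes of the reductase that makes mevalonate, a controlled step of the pathway, HMG2 rose and HMG1 did not pass. HMG2 encodes the isozyme whose protein is degraded when pathway products build up (YLR450W, chromosome 12, 1032623 to 1035760, plus strand). HMG2 read 9.20 and 9.20 in eEF1A cells, against 8.89, 8.92, 8.9997 and 8.86 in control cells, and the groups did not overlap. It rose by 0.28 (SE 0.05, 1.22-fold, adjusted p = 0.00439). HMG1, the gene of the stable isozyme, read 10.42 and 10.50 in eEF1A cells, against 10.52, 10.46, 10.57 and 10.58 in control cells. Its groups overlapped, and the difference of -0.07 did not pass (95% interval -0.20 to 0.06, adjusted p = 0.323).

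Of the genes of the enzymes that take mevalonate to farnesyl diphosphate, 1 rose, 1 fell and 3 did not pass. ERG12 encodes mevalonate kinase (YMR208W, chromosome 13, 684466 to 685797, plus strand). It read 10.19 and 10.15 in eEF1A cells, against 9.91, 9.86, 9.95 and 9.88 in control cells. The arrays of each group lay close together and apart from those of the other, and the rise was 0.27 (SE 0.05, 1.21-fold, adjusted p = 0.00361). IDI1 encodes the isomerase that makes dimethylallyl diphosphate (YPL117C, chromosome 16, 327863 to 328729, minus strand). It read 11.84 and 11.72 in eEF1A cells, against 12.01, 12.02, 11.96 and 12.05 in control cells. The groups did not overlap, and IDI1 fell by 0.23 on the log2 scale (SE 0.06, 0.854-fold, adjusted p = 0.0118). ERG8 and MVD1, the genes of the kinase and the decarboxylase that act between these enzymes, differed by 0.03 and 0.05. ERG20, which encodes farnesyl diphosphate synthase at the end of these steps, differed by -0.06, and all 3 had adjusted p values of 0.445 to 0.684. ERG20 fell with median centring (adjusted p = 0.0475).

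**Figure D2:**
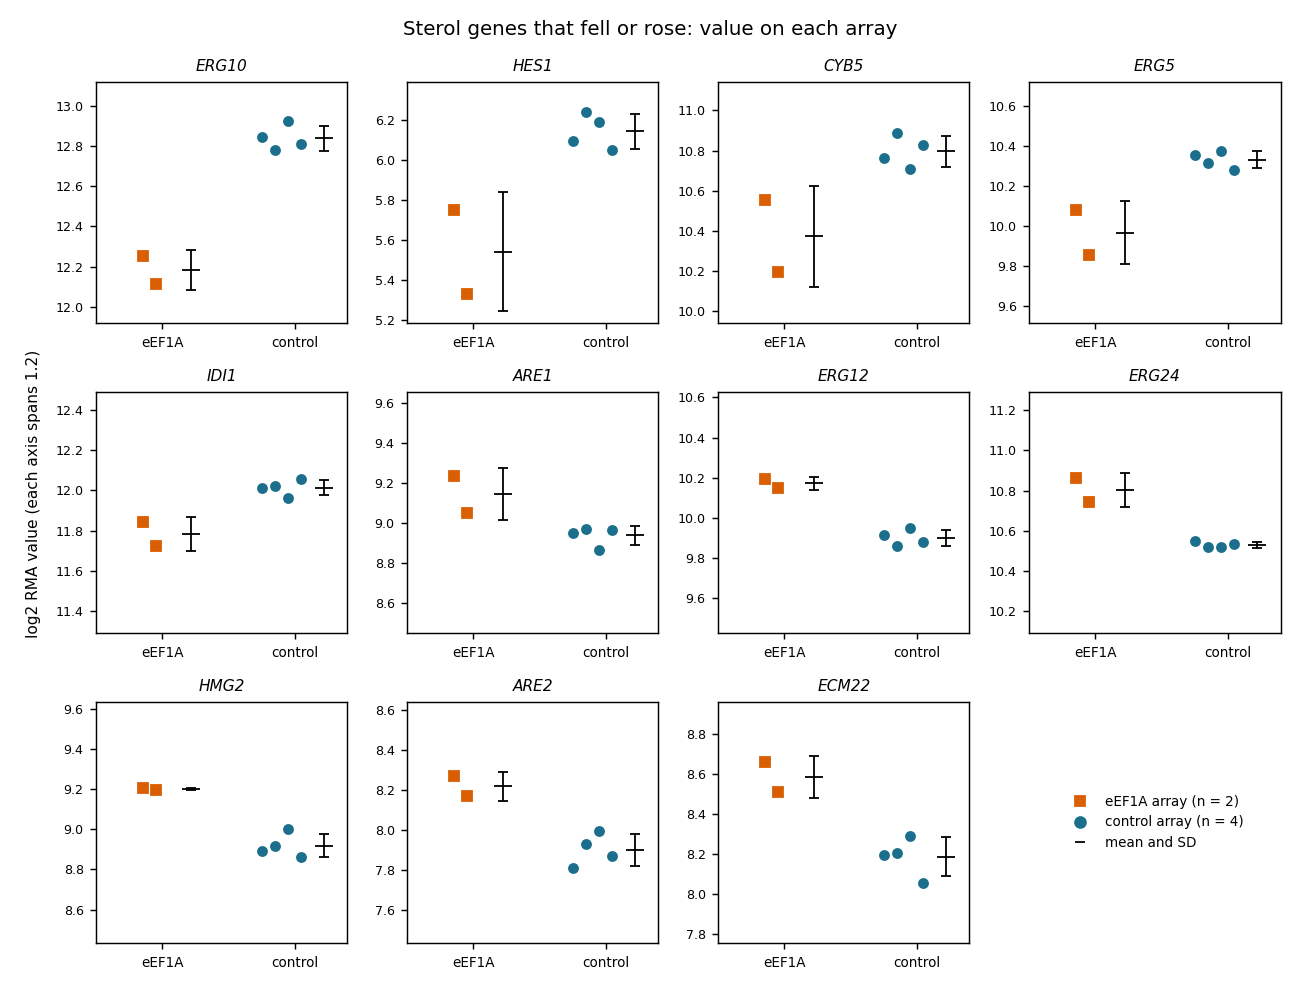
Log2 RMA value of the 11 sterol genes that passed the test on each array, with eEF1A arrays as squares (n = 2), control arrays as circles (n = 4) and the mean and SD beside them; every vertical axis spans 1.2. The squares lie outside the range of the circles in each panel, below it for ERG10, HES1, CYB5, ERG5 and IDI1 and above it for the others, and eEF1A replicate 3 lies lower than replicate 2 in each.

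Most of the 16 genes of the steps from squalene onwards did not pass. Of these, 1 rose (6.25%) and 2 fell (12.5%), against 27.5% and 15.4% of all genes (42.9% in either direction). The 13 that did not pass had differences of -0.15 to 0.10 and 95% intervals between -0.29 and 0.23. The number that fell was 6 with median centring, where 25.3% of all genes fell. It was 5 after quantile normalization, where 26.0% of all genes fell. ERG24 encodes the sterol reductase that follows the demethylation of lanosterol (YNL280C, chromosome 14, 109093 to 110409, minus strand). It read 10.86 and 10.74 in eEF1A cells, against 10.55, 10.52, 10.52 and 10.53 in control cells. The controls were almost level, with an SD of 0.01, and both eEF1A arrays were above them by more than the gap between the 2. ERG24 rose by 0.27 (SE 0.05, 1.21-fold, adjusted p = 0.00420).

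ERG5 and CYB5 fell. ERG5 encodes the cytochrome P450 that desaturates the sterol side chain (YMR015C, chromosome 13, 300868 to 302484, minus strand). It read 10.08 and 9.86 in eEF1A cells, against 10.35, 10.32, 10.38 and 10.28 in control cells. Both eEF1A arrays were lower than all controls, and ERG5 fell by 0.36 on the log2 scale (SE 0.07, 0.778-fold, adjusted p = 0.00412). CYB5 encodes cytochrome b5, an electron donor for sterol and other lipid enzymes (YNL111C, chromosome 14, 416940 to 417302, minus strand). It read 10.55 and 10.19 in eEF1A cells, against 10.76, 10.89, 10.71 and 10.83 in control cells. The groups did not overlap, though the eEF1A arrays were 0.36 apart. CYB5 fell by 0.42 on the log2 scale (SE 0.10, 0.745-fold, adjusted p = 0.00947), and by 0.25 without eEF1A replicate 3.

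The gene of the other cytochrome P450 of the pathway did not pass. ERG11, which encodes the lanosterol demethylase that azole drugs inhibit, read 12.72 and 12.59 in eEF1A cells, against 12.64, 12.63, 12.64 and 12.60 in control cells. The eEF1A arrays lay on either side of the controls, and the difference was 0.03 (95% interval -0.10 to 0.15, adjusted p = 0.699). NCP1, the gene of the reductase that passes electrons to both P450 enzymes, differed by -0.04 (adjusted p = 0.513).

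The genes of the steps that make and cyclise squalene did not pass. ERG9, the gene of squalene synthase, differed by 0.02. ERG1, the gene of squalene epoxidase, differed by 0.08 and ERG7, the gene of lanosterol synthase, by -0.01. Each had overlapping groups, with adjusted p values of 0.832, 0.399 and 0.920.

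The removal of methyl groups after ERG24 is carried out by the products of ERG25, ERG26 and ERG27, which ERG28 holds together as a scaffold. ERG25, the methyl oxidase gene, differed by less than 0.01 (95% interval -0.14 to 0.15). ERG26, the decarboxylating dehydrogenase gene, differed by 0.10 (adjusted p = 0.157) and ERG27, the keto reductase gene, by -0.09 (adjusted p = 0.183). The eEF1A arrays lay above all controls for ERG26 and below all controls for ERG27. This was so for 35.8% and 21.5% of all genes. Neither gene passed in the analysis as reported, so no direction is read for the complex. ERG27 fell with median centring (-0.15, adjusted p = 0.0144) and after quantile normalization (-0.13, adjusted p = 0.0163). ERG28 differed by -0.03 (adjusted p = 0.796).

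In the last steps, which rebuild the ring and the side chain, no gene but ERG5 passed, and for ERG6, ERG3 and ERG4 this depended on the scaling. ERG6, the gene of the sterol methyltransferase, read 12.40 and 12.25 in eEF1A cells, against 12.49, 12.47, 12.46 and 12.48 in control cells. Both eEF1A arrays were lower than every control, and the difference of -0.15 (SE 0.06) did not pass (adjusted p = 0.0639). Without eEF1A replicate 2 it was -0.22. ERG2, the sterol isomerase gene, differed by -0.04, ERG3, which encodes a desaturase of the ring, by -0.06, and ERG4, which encodes the final reductase, by -0.13, with adjusted p values of 0.525, 0.331 and 0.149. With median centring ERG6 (-0.21, adjusted p = 0.00555), ERG4 (-0.19, adjusted p = 0.0243) and ERG3 (-0.12, adjusted p = 0.0264) fell, and after quantile normalization ERG6 (-0.18, adjusted p = 0.0129) and ERG4 (-0.16, adjusted p = 0.0360) fell.

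Both genes of sterol esterification rose, against 27.5% of all genes (42.9% in either direction), and the call of ARE1 depended on the scaling. ARE2 encodes the acyltransferase that makes most steryl ester in aerobic cells (YNR019W, chromosome 14, 665338 to 667266, plus strand). It read 8.27 and 8.17 in eEF1A cells, against 7.81, 7.93, 7.995 and 7.87 in control cells. The groups did not overlap, and ARE2 rose by 0.32 (SE 0.07, 1.25-fold, adjusted p = 0.00574). ARE1 encodes its paralog (YCR048W, chromosome 3, 211924 to 213756, plus strand). It read 9.24 and 9.05 in eEF1A cells, against 8.95, 8.97, 8.87 and 8.97 in control cells. Most of its rise of 0.21 (SE 0.07, 1.15-fold, adjusted p = 0.0349) came from eEF1A replicate 2. Without that array the difference was 0.11. The call was lost without any 1 of the 4 controls (adjusted p = 0.0586 to 0.0736) and under either scaling above.

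The regulators did not move together. ECM22 encodes a zinc cluster activator of sterol genes (YLR228C, chromosome 12, 600021 to 602465, minus strand). It read 8.66 and 8.51 in eEF1A cells, against 8.19, 8.20, 8.29 and 8.06 in control cells. Both eEF1A arrays were above all controls, and ECM22 rose by 0.40 (SE 0.08, 1.32-fold, adjusted p = 0.00382), the largest rise of the 32 genes. Its paralog UPC2, which encodes the activator that responds most strongly to low sterol (YDR213W, chromosome 4, 889744 to 892485, plus strand), read 7.79 and 7.64 in eEF1A cells, against 7.86, 7.82, 7.87 and 7.79 in control cells. The higher eEF1A array lay within the controls, and the difference of -0.12 did not pass (95% interval -0.26 to 0.02, adjusted p = 0.146). It passed under median centring (-0.18, adjusted p = 0.0118) and after quantile normalization (-0.24, adjusted p = 0.00283). Without eEF1A replicate 2 the difference was -0.20.

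HES1 encodes an oxysterol-binding protein homologue and is induced through Upc2 when sterol is low (YOR237W, chromosome 15, 781994 to 783298, plus strand). It read 5.75 and 5.33 in eEF1A cells, against 6.09, 6.24, 6.19 and 6.05 in control cells. The groups did not overlap, but all arrays lay near the background level of 5.18 and the eEF1A arrays were 0.42 apart, the widest gap of the 32 genes. HES1 fell by 0.60 on the log2 scale (SE 0.11, 0.659-fold, adjusted p = 0.00344), and by 0.39 without eEF1A replicate 3.

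NSG1 and NSG2 encode homologues of the mammalian Insig proteins, and Nsg1 is known to bind Hmg2 and protect it from degradation. NSG1 read 11.01 and 10.85 in eEF1A cells, against 10.77, 10.78, 10.83 and 10.76 in control cells. NSG2 read 9.70 and 9.49 in eEF1A cells, against 9.74, 9.80, 9.82 and 9.73 in control cells. The eEF1A arrays thus lay above the controls for NSG1 and below them for NSG2, each by a narrow margin at the nearer array. NSG1 differed by 0.15 (SE 0.06, adjusted p = 0.0778) and NSG2 by -0.18 (SE 0.07, adjusted p = 0.0648). Neither passed. The difference of NSG1 was 0.23 without eEF1A replicate 3, and that of NSG2 was -0.29 without eEF1A replicate 2. NSG2 passed under both scalings, and NSG1 after quantile normalization.

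Several of these genes are paralogs, so the difference between the members of a pair was taken within each array, which leaves out any shift that an array shares. The 5 pairs were chosen after the values were seen, so no test is given. On each array the difference is given less its mean over the controls. ECM22 minus UPC2 was 0.51 and 0.52 in eEF1A cells, against -0.08 to 0.07 in control cells. HMG2 minus HMG1 was 0.40 and 0.31 in eEF1A cells, against -0.10 to 0.07 in control cells. In both pairs the groups lay far apart compared with the spread within them. NSG1 minus NSG2 was 0.30 and 0.35 in eEF1A cells, against -0.03 to 0.02 in control cells. HES1 minus KES1, its paralog, was -0.50 and -0.93 in eEF1A cells, against -0.07 to 0.20 in control cells. ARE2 minus ARE1 was 0.07 and 0.15 in eEF1A cells, against -0.10 to 0.16 in control cells, and was the pair whose groups overlapped. The contrasts of the 4 pairs that did not overlap kept their sign after quantile normalization, at 0.56, 0.30, 0.32 and -0.84 in the order given, and that of ARE2 and ARE1 was 0.07.

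**Figure D3:**
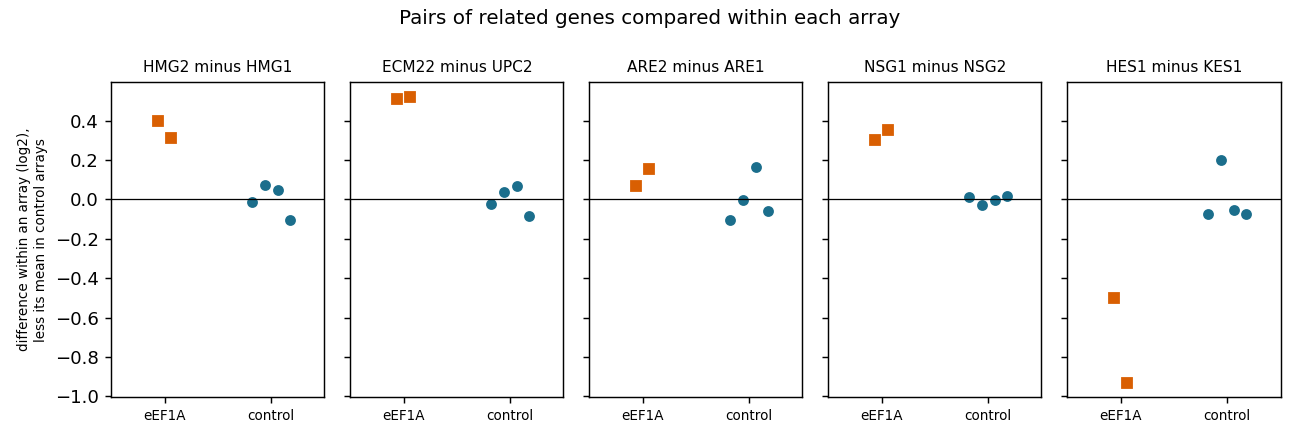
Difference between the members of 5 pairs of related genes within each array (log2), less its mean over the control arrays, for eEF1A arrays (squares, n = 2) and control arrays (circles, n = 4). The squares for ECM22 minus UPC2 lie at 0.51 and 0.52 and those for HES1 minus KES1 at -0.50 and -0.93, outside the controls, while ARE2 minus ARE1 overlaps them.

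The 2 eEF1A arrays were not at the same level in the sterol genes. eEF1A replicate 3 read lower than replicate 2 in 31 of the 32 genes (96.9%), HMG1 being the exception, and in 82.2% of all genes. The median gap was -0.12 for the sterol genes and -0.11 for all genes, so the gap was of like size. Among the controls, the SD of a sterol gene was between 0.01 and 0.12 with a median of 0.04. The falls in HES1, CYB5, ERG5, ERG10 and IDI1 were therefore larger on replicate 3, and the rises in ECM22, ERG24, ARE1, ARE2 and ERG12 larger on replicate 2. On replicate 2 the S. cerevisiae median was 9.12, against 9.03 on replicate 3 and 9.003 to 9.05 on the controls. The actin probe sets of the 3′ and 5′ ends follow the quality of the RNA. They differed by 0.72 and 0.76 on the eEF1A arrays and by 0.62 to 0.72 on the controls. The control probe set CreX (3′ end) read 11.81 on replicate 2, 13.63 on replicate 3 and 13.47 to 13.55 on the controls. A second Cre probe set read 13.82 on replicate 2, 13.90 on replicate 3 and 13.77 to 13.83 on the controls. What these readings have to do with the differences between the arrays was not tested.

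Genes around the pathway, 71 in 8 lists, also moved in both directions, and for several lists the balance shifted with the scaling. With median centring 1 rose and 4 fell among the genes of steryl ester breakdown and sterol acetylation, 1 and 4 among the other users of isoprenoid diphosphates, 1 and 1 in haem and oxygen control, 3 and 3 in degradation at the endoplasmic reticulum, 0 and 2 in acetyl-CoA supply, 4 and 3 in sterol uptake and anaerobic targets, 7 and 0 in sterol carriers, and 0 and 2 in unsaturated fatty acid control, against 24.0% and 25.3% of all genes. Of the 10 genes of sterol uptake and other anaerobic targets of Upc2, 4 rose and 2 fell, against 27.5% and 15.4% of all genes. Their median difference was 0.07, and 1 fell without control replicate 2. TIR4, a cell wall mannoprotein gene of anaerobic growth, read 7.24 and 6.99 in eEF1A cells and 7.99 ± 0.05 (SD, n = 4) in control cells, and fell by 0.87 on the log2 scale (adjusted p = 9.73e-05). DAN4, of the same kind, read 7.32 and 7.32 in eEF1A cells and 6.74 ± 0.11 (SD, n = 4) in control cells, a rise of 0.58 (adjusted p = 0.000615). PDR11, which encodes a sterol importer, rose by 0.51 (adjusted p = 0.00684), and by 0.30 without eEF1A replicate 2. Known Upc2 targets, HES1 among them, were thus found on both sides. TIR1, of the same family as TIR4, differed by -0.28 and did not pass (adjusted p = 0.0553). It passed with median centring (-0.34, adjusted p = 0.0180), after quantile normalization (adjusted p = 0.0181), with limma-trend (adjusted p = 0.0331) and without control replicate 4 (adjusted p = 0.0351). The difference of TIR1 was -0.43 without eEF1A replicate 2 and -0.13 without eEF1A replicate 3.

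Of 17 genes whose products carry or bind sterols and lipids between membranes, 7 rose and 0 fell, with a median of 0.11, against 27.5% and 15.4% of all genes and a median of 0.04. PDR17, a Sec14 homologue gene, read 9.66 and 9.67 in eEF1A cells and 9.14 ± 0.05 (SD, n = 4) in control cells, and rose by 0.53 (adjusted p = 0.000167). NCR1, the yeast homologue of the Niemann-Pick C1 gene, rose by 0.39 (adjusted p = 0.00453) and LAM5, which encodes a protein of membrane contact sites, by 0.36 (adjusted p = 0.00121). NPC2, whose product hands sterol to Ncr1, differed by -0.03 (adjusted p = 0.720). At an unadjusted p under 0.05 from limma 8 were higher and 0 lower, against 32.6% and 18.9% of all genes.

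Among 7 genes of steryl ester breakdown and sterol acetylation, 1 rose and 2 fell, against 27.5% and 15.4% of all genes. ATF2, which encodes the acetyltransferase that acetylates sterols, read 8.36 and 8.19 in eEF1A cells and 8.82 ± 0.03 (SD, n = 4) in control cells, and fell by 0.54 on the log2 scale (adjusted p = 0.000275). The genes of the steryl ester hydrolases Yeh1 and Tgl1 moved apart. YEH1 fell by 0.41 on the log2 scale (adjusted p = 0.00649; 0.25 without eEF1A replicate 3), and TGL1 rose by 0.31 (adjusted p = 0.00389). PRY2, of a secreted sterol-binding protein, differed by -0.19 (adjusted p = 0.0620). It passed with median centring (-0.25, adjusted p = 0.00566), after quantile normalization (adjusted p = 0.00856) and with limma-trend (adjusted p = 0.0271). The difference of PRY2 was -0.29 without eEF1A replicate 2 and -0.08 without eEF1A replicate 3.

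The other users of isoprenoid diphosphates had 2 rises and 2 falls among 12 genes, against 27.5% and 15.4% of all genes. BTS1, the gene of geranylgeranyl diphosphate synthase, read 7.56 and 7.58 in eEF1A cells and 8.09 ± 0.06 (SD, n = 4) in control cells, and fell by 0.52 on the log2 scale (adjusted p = 0.000230). COX10, which encodes the farnesyltransferase on the way to haem A, fell by 0.51 on the log2 scale (adjusted p = 0.0110), and by 0.26 without eEF1A replicate 3. DPP1, the gene of a phosphatase of lipid diphosphates, rose by 0.27 (adjusted p = 0.00350). RER2, of dolichol synthesis, differed by -0.06 (adjusted p = 0.393, and 0.0356 with median centring). Without eEF1A replicate 3 the difference was 0.28 for DPP1, -0.53 for BTS1 and -0.003 for RER2. A count of calls is not given for that fit, which leaves 1 eEF1A array.

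In the list of haem and oxygen control of sterol genes, 1 of 8 rose and 0 fell, against 27.5% and 15.4% of all genes. At an unadjusted p under 0.05 from limma 2 were higher and 0 lower, against 32.6% and 18.9% of all genes. The gene that rose was HAP1, which encodes a haem-responsive transcription factor that acts on sterol genes. HAP1 read 10.30 and 10.26 in eEF1A cells and 9.82 ± 0.06 (SD, n = 4) in control cells, and rose by 0.45 (adjusted p = 0.000448). HEM1, of the first step of haem synthesis, differed by 0.12 (adjusted p = 0.101).

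In a list of 10 genes of protein degradation at the endoplasmic reticulum, 4 rose and 0 fell, against 27.5% and 15.4% of all genes. The counts were the same at an unadjusted p under 0.05 from limma, against 32.6% and 18.9% of all genes. DFM1, which encodes a derlin, rose by 0.30 (adjusted p = 0.00290) and DER1, another derlin gene, by 0.27 (adjusted p = 0.0117). DER1 passed with median centring (adjusted p = 0.0466) but not after quantile normalization (adjusted p = 0.0555), and differed by 0.19 without eEF1A replicate 3. USA1, of the scaffold of the ubiquitin ligase complex, rose by 0.25 (adjusted p = 0.0416). The call of USA1 was lost with median centring (adjusted p = 0.115), after quantile normalization (adjusted p = 0.228) and with array weights (adjusted p = 0.194). It was also lost with all probe sets in the moderation (adjusted p = 0.0523) and without control replicate 1, 2 or 3 (adjusted p = 0.0671 to 0.0723). Without eEF1A replicate 3 the difference of USA1 was 0.17. CDC48, the gene of the ATPase that extracts proteins from the membrane, differed by 0.05 (adjusted p = 0.584).

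Of 4 genes of acetyl-CoA supply 1 rose and 0 fell, against 27.5% and 15.4% of all genes. ACS1, an acetyl-CoA synthetase gene, rose by 0.21 (adjusted p = 0.0405). The call was lost with median centring (adjusted p = 0.0734) and after quantile normalization (adjusted p = 0.145). It was also lost without control replicate 1, 2 or 4 (adjusted p = 0.0769 to 0.0947). Without either eEF1A array the difference of ACS1 was 0.21. ACC1, the acetyl-CoA carboxylase gene, differed by -0.16 (adjusted p = 0.0990, 0.0186 with median centring and 0.0413 with limma-trend). In the list of unsaturated fatty acid control 0 of 3 genes rose and 2 fell, against 27.5% and 15.4% of all genes. The fatty acid desaturase gene OLE1 read 12.23 and 12.05 in eEF1A cells, against 12.61, 12.62, 12.65 and 12.57 in control cells. Both eEF1A arrays were lower than all controls, and OLE1 fell by 0.47 on the log2 scale (SE 0.06, adjusted p = 0.000696). MGA2, an activator gene of OLE1, fell by 0.17 on the log2 scale (adjusted p = 0.0345). This call was lost without control replicate 1, 2 or 4 (adjusted p = 0.0618 to 0.0929), and the difference was -0.14 without eEF1A replicate 3. SPT23, the paralog of MGA2, differed by -0.01 (adjusted p = 0.912).

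**Figure D4:**
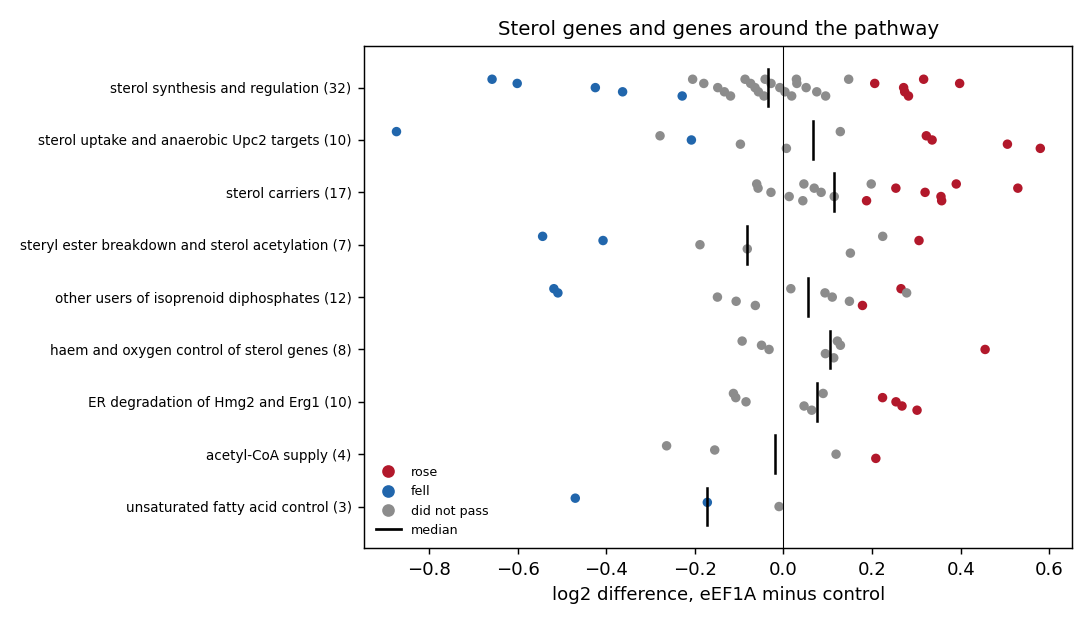
Log2 difference (eEF1A minus control) of each of the 32 sterol genes and of the 71 genes in 8 lists around the pathway, 1 point a gene, coloured by whether it rose, fell or did not pass, with a line at the median of each list. The sterol genes have a median of -0.03, and the sterol carriers, with 7 of 17 genes risen and 0 fallen, have the highest median at 0.11.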

How the data were processed

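Total RNA of log phase cultures was hybridised to Affymetrix Yeast 2.0 arrays, and the authors deposited log2 expression values, made with RMA (version not given in the sources used here) through affylmGUI, for 10928 probe sets. RMA makes the arrays' distributions equal over the probe sets of both yeasts together, and those of S. cerevisiae alone still differ a little between arrays. Columns of the authors' own comparison, with fold changes, p-values and gene selections, were not used, and columns of other samples numbered 0. The groups, 2 eEF1A and 4 control arrays, follow the labels, while the methods name triplicates.

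The 5810 probe sets of S. cerevisiae were fitted in limma 3.58.1 (R 4.3.3) with a term for the group alone (4 residual and 4.09 prior degrees of freedom, prior proportion 0.01), and p-values were adjusted by Benjamini-Hochberg over 5726 genes. Names come from the annotation of the chip, and 5713 locus tags matched a RefSeq table of the R64 assembly. Of a gene with several probe sets (40 genes) the brightest was used. The genes and lists were chosen with earlier results of these data known. Every member that passed was named with all array values, as were all regulators and the ARE and HMG genes, and from each other list up to 3 genes that passed with the largest difference and the brightest that did not. For each gene, 17 alternatives were run. Groups share the replicate numbers 2 and 3, which are not known to pair the cultures.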

Additional observations from a re-analysis of the deposited data

How the results depend on the processing

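ERG10, ERG5, CYB5 and HES1 passed with the same sign under every alternative that kept both eEF1A arrays. The call of ECM22 was lost with the replicate number as a block. HMG2, ERG12, IDI1, ERG24 and ARE2 were lost with this block and with only the arrays numbered 2 and 3. ARE1 was lost with both, under either scaling, with array weights, with all probe sets in the moderation and without any 1 control. Some alternatives change only the moderation or which probe sets and genes enter. They leave the difference of a gene with 1 probe set as it was, so passing under them adds little. Each array left out in turn gave 5 to 7 sterol genes that rose and 5 to 9 that fell, with 9 falls without eEF1A replicate 2. Over all genes 20.8% rose and 21.6% fell without eEF1A replicate 2, and 32.4% and 10.9% without eEF1A replicate 3. The number of falls was 13 with median centring (25.3% over all genes) and 11 after quantile normalization (26.0% over all genes). It was 8 with limma-trend (16.3% over all genes) and 1 by the B-statistic (2.51% over all genes). By the B-statistic 0 rose, against 6.08% of all genes. With the replicate number as a block 0 rose and 4 fell. With only the arrays numbered 2 and 3 in each group 1 rose and 4 fell, against 14.9% and 8.05% of all genes. Both settings have fewer residual degrees of freedom. The numbers are not known to pair the cultures. The deviations of same-numbered arrays correlated at -0.01 and -0.04, and those of differently numbered arrays at 0.04 and 0.01. With 2 eEF1A arrays their deviations mirror each other, so these values cannot decide whether the cultures were paired. The block moved the calls over all genes to 13.5% higher and 7.61% lower.

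The log2 differences that turned sign belong to genes that did not pass in the analysis as reported. With median centring they were -0.0284 (ERG8), -0.00742 (MVD1), -0.0400 (ERG9), -0.0293 (ERG11), -0.0552 (ERG25) and -0.0121 (CDC48). After quantile normalization they were -0.0210 (ERG8), -0.0349 (ERG9), -0.0390 (ERG11), -0.0750 (ERG25) and -0.0253 (CDC48). ERG7 was at 0.00579 with array weights, and SPT23 at 0.0111 with the block and with only the arrays numbered 2 and 3. With each array left out in turn, the range was -0.0295 to 0.0900 for ERG8, -0.136 to 0.0232 for ERG20, -0.0504 to 0.0874 for ERG9, -0.0503 to 0.0339 for ERG7, -0.0364 to 0.0949 for ERG11, -0.0303 to 0.0370 for ERG25, -0.0778 to 0.0173 for ERG28, -0.0907 to 0.0343 for NPC2, -0.0448 to 0.138 for CDC48 and -0.0741 to 0.0542 for SPT23. The cause of these turns was not tested. With 2 eEF1A arrays, the 95% intervals of genes that did not pass reach -0.38 and 0.28, so differences within them are not resolved.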
